A study of Mus musculus with 6 samples.

Results

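Integrin subunit genes were examined in ATAC-seq peak lists of mouse marrow depleted of mature lineages, which the labels name hematopoietic stem and progenitor cells (HSPC). The 27 genes are the protein-coding genes whose symbol starts with Itga or Itgb, without Itgax and without symbols that start with Itgb1bp or Itgb3bp, out of 21887 protein-coding genes on chromosomes 1 to 19, X and Y. A peak was taken as a gene's own when its summit lay in the gene's span on mm10 or, outside all spans, when that span was the nearest. This gave 102 of 47233 peaks in the Smc3 het list and 28 of 14830 in the Smc3 wt list. ATAC-seq maps accessible DNA by the sites at which the Tn5 transposase inserts sequencing adapters. All 6 libraries are labelled inv(16), the name of the inversion that in human acute myeloid leukemia fuses CBFB to MYH11. In 3 of them, labelled inv(16);Smc3 D/+, the cohesin ring gene Smc3 is heterozygous, with an allele written D that the labels do not define (Smc3 het), and in the other 3, labelled inv(16);Smc3 +/+, both copies are wild type (Smc3 wt). The labels of all 6 give mice in vivo, viral transduction and induction by tamoxifen of what they write as Creon, read here as the Cre recombinase. The driver of that Cre, the age of the mice and any pooling of animals are not stated in the labels.

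Integrins are cell-surface receptors made of 1 alpha and 1 beta chain. They bind matrix proteins or counter-receptors on other cells and link them through talin and kindlin to the actin cytoskeleton. In bone marrow, the alpha chain of Itga4 with the beta chain of Itgb1 holds stem and progenitor cells to VCAM1 on stroma. The chains of Itgb2 serve leukocyte adhesion, and Itga2b with Itgb3 forms the fibrinogen receptor of megakaryocytes and platelets.

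The authors deposited 1 peak list per genotype and the files hold no value per library, so the spread between libraries cannot be set against any difference and no test was run. Intervals on shares are exact (Clopper-Pearson) 95% intervals covering error of counting and nothing else. The depth of sequencing is unknown. A background of 10.6 fragments for Smc3 het and 8.65 for Smc3 wt could be worked back from the deposited fold and p-values, and the narrowest peaks measured 138 bp and 208 bp. The Smc3 het list was 3.18 times as long as the Smc3 wt list. With 1 list per genotype, genotype, depth and the authors' peak calling cannot be told apart. In bulk samples, fewer cells of a type and less accessible DNA per cell cannot be told apart either. Of 14 HSPC markers, 8 had a peak within 1 kb of a gene end in Smc3 het and 3 (Kit, Meis1, Runx1) in Smc3 wt, while Cd48 and Procr had no peak assigned in either list. Over all protein-coding genes such a gene-end peak was found for 51.6% in Smc3 het and 37.7% in Smc3 wt. Such a peak was found at 1 of 7 B cell markers for Smc3 het and at 0 for Smc3 wt, and of 9 T and NK cell markers none had one in either list. Of 10 monocyte and macrophage markers 8 had one in Smc3 het and 1 in Smc3 wt.

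Most integrin genes held peaks, and most of their Smc3 het peaks had no counterpart in Smc3 wt. A Smc3 het peak was assigned to 25 of the 27 genes, against 73.3% of all protein-coding genes, and a Smc3 wt peak to 18 of 27, against 47.0%. Itgb8, whose product pairs with the alpha v chain, and Itgb2l, a beta 2-like gene known as pactolus in mouse neutrophils, had no peak in either list. Itga3, Itga5, Itga7, Itga10, Itga11, Itgal and Itgb3 had Smc3 het peaks and no Smc3 wt peak. They are 7 of 27 (25.9%, interval 11.1 to 46.3). The share of all genes with this pattern was not taken, so it cannot be called particular to integrin genes. When each gene was given the peaks in its span and 5 kb around it, Itga3 had 1 Smc3 wt peak, shared, and Itgal had none in either list. Of the 102 Smc3 het peaks, 26 (25.5%, interval 17.4 to 35.1) overlapped a Smc3 wt peak by at least 1 bp and 76 (74.5%) were in the Smc3 het list alone, against 69.9% of all Smc3 het peaks with a gene. In the other direction, 27 of 28 Smc3 wt peaks were shared and 1 was in the Smc3 wt list alone, against 2.90% of all Smc3 wt peaks. Itgae held that peak, and 1.77% of all genes had at least 1 such peak. The ratio of Smc3 het to Smc3 wt peak numbers was 3.64 at integrin genes and 3.18 over the whole lists.

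**Figure D1:**
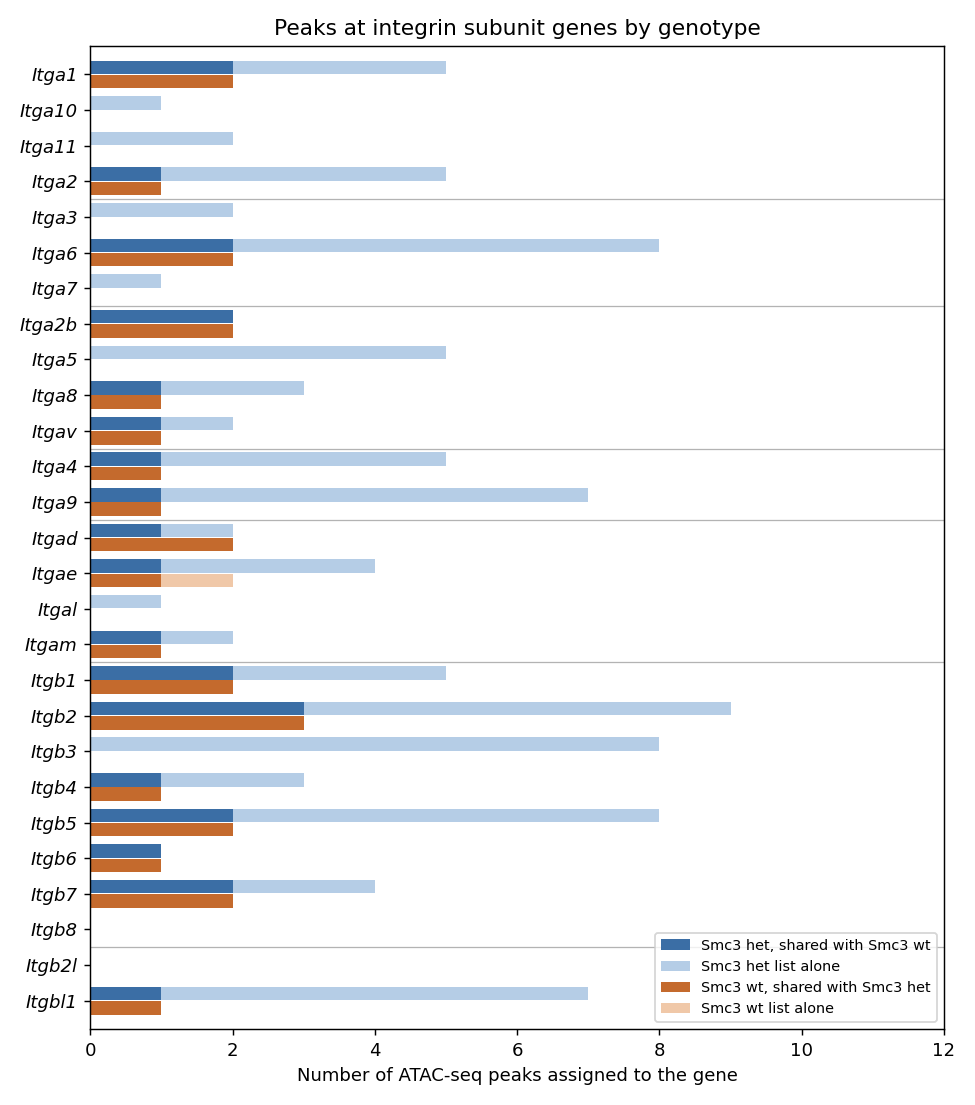
Number of peaks assigned to each integrin gene (horizontal axis), with Smc3 het in blue and Smc3 wt in orange; dark bars are peaks that overlap the other list and light bars are peaks of 1 list alone. Itgb2 had most Smc3 het peaks (9), Itgb3 had 8 and no Smc3 wt peak, and Itgb8 and Itgb2l had none.

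At least 1 peak in the Smc3 het list alone was found at 23 of the 27 genes (85.2%, 66.3 to 95.8), against 56.4% of all protein-coding genes. Integrin genes are long, with a median span of 56.9 kb against 17.2 kb over all genes. Among the 10652 genes whose span lay within the integrin range of 16.6 to 319 kb, 70.2% had such a peak, which lies inside the interval for integrins. The 4 integrin genes without one were Itga2b and Itgb6, whose Smc3 het peaks were all shared, and the 2 genes without any peak. The mean was 2.81 peaks of the Smc3 het list alone per integrin gene and 2.05 per gene of the same span range, and the medians were 2 and 1. Inside their spans the integrin genes held 3.41 Smc3 het peaks per 100 kb, and genes of the same span range held 2.71. Genes of that range were not matched to the integrin genes in span, so a difference in length can remain in these values.

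Whether a peak was shared followed its significance in the Smc3 het list, given by the authors' -log10 q. The shared integrin peaks had a median -log10 q of 17.6 and a median width of 600 bp, and those of the Smc3 het list alone 5.18 and 239 bp. Of the 26 integrin peaks in the 3 most significant deciles of the Smc3 het list, 1 of 1, 8 of 9 and 12 of 16 were shared. In the fourth decile none of 10 was shared (0%, interval 0 to 30.8), against 29.5% of all peaks there. In the third decile the integrin share was 75.0% (47.6 to 92.7) against 51.5%. Each decile's interval included the share over all peaks. With 1 to 16 integrin peaks in a decile these intervals were wide, so this cannot show that the shares were alike. When every integrin peak was given the genome-wide share of its decile and position, 24.1 shared peaks were reached against 26 observed. At like significance and position, the number of shared integrin peaks was near that of other peaks.

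**Figure D2:**
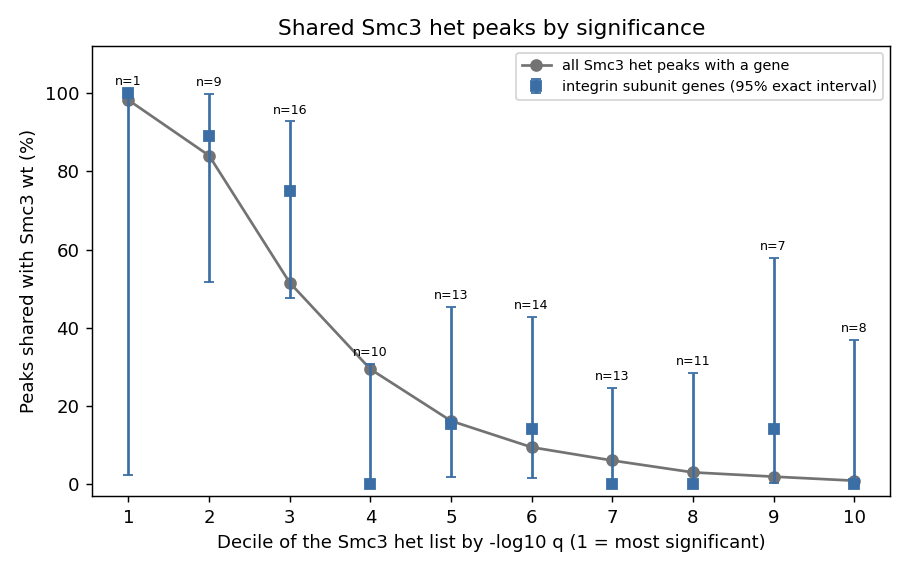
Percentage of Smc3 het peaks that overlap a Smc3 wt peak (vertical axis) by decile of significance (horizontal axis, 1 is the most significant), for integrin genes (blue squares, exact 95% intervals, n peaks above) and all peaks with a gene (grey). The grey line falls from 98.2% to 0.979%, and it lies within every blue interval, each of them wide at 1 to 16 integrin peaks.

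By position, 9 of the 19 integrin peaks at the end of any protein-coding gene were in the Smc3 het list alone (47.4%), against 36.5% of all such peaks. Elsewhere inside a gene 47 of 61 were (77.0%), against 78.9%. Between genes 20 of 22 were (90.9%), against 82.4%. The 61 peaks inside genes were 59.8% (49.6 to 69.4) of integrin peaks, against 37.7% of all peaks, and the 22 between genes were 21.6% (14.0 to 30.8), against 37.9%. This split was not tested, and no share was taken for genes of like span. Integrin genes had a median span of 56.9 kb against 17.2 kb over all genes. Of the 102 peaks, 76 lay inside the integrin gene itself and 16 lay more than 5 kb outside it. The most distant was an Itga1 peak, 402229 bp outside the gene.

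**Figure D3:**
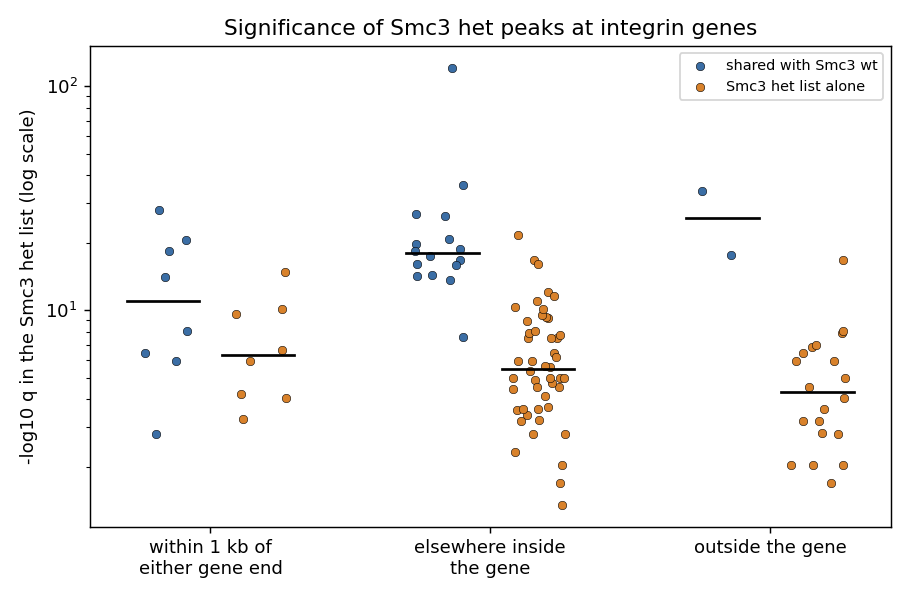
Authors' -log10 q of each integrin peak in the Smc3 het list (vertical log axis) by place relative to its own gene; blue points overlap a Smc3 wt peak, orange points do not, and black lines are medians. Elsewhere inside the gene the median was 18.0 for 16 shared peaks and 5.47 for 48 peaks of the Smc3 het list alone.

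Peaks at gene ends were examined next, since accessible gene starts mark promoters. Within 1 kb of either end of the gene, 8 integrin genes had a peak in both lists (29.6%, 13.8 to 50.2, against 37.5% of all genes): Itga1, Itga2, Itga2b, Itga4, Itga6, Itga8, Itga9 and Itgb1. In 6 genes (22.2%, 8.62 to 42.3, against 14.2%) the Smc3 het list had such a peak and the Smc3 wt list did not: Itga5, Itga10, Itgb2, Itgb3, Itgb4 and Itgb5. The other 13 had none. A RefSeq promoter table (GRCm38.p6, the assembly of mm10) gave start sites for 19 of the 27 genes, and Itga6, Itga7, Itgad, Itgae, Itgal, Itgb2, Itgb3 and Itgb4 were not among them. Within 1 kb of a tabled start, 8 of the 19 had a peak in both lists (42.1%, against 40.7% of all tabled genes), namely Itga1, Itga2, Itga2b, Itga4, Itga8, Itgav, Itgb1 and Itgb7. In 2 of the 19 (10.5%, against 13.2%), Itga5 and Itgb5, the Smc3 het list alone had one.

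The RefSeq windows from 250 bases before to 50 bases after the start are shown for the 3 integrin genes with the most significant peak over the window, and for Itgb5, whose window was covered in the Smc3 het list and not in Smc3 wt. Capitals mark matches on either strand to the letters searched, and matches that overlap run together. For ETS factors these letters were CCGGAA or, as a separate string, GAGGAAGT. For RUNX factors they were TGTGGT or otherwise TGCGGT. The letters for GATA factors were AGATAA, while AP-1 was searched as TGANTCA. The SP family was searched as GGGCGG. For CTCF the letters were AGGGGGC or otherwise AGGTGGC.
Itga4: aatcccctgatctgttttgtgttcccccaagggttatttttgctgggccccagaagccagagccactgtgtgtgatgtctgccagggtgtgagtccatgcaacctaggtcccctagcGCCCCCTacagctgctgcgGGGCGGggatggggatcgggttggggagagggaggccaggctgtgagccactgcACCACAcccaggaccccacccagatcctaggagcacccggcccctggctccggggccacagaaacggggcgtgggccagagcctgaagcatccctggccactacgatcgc
Itgav: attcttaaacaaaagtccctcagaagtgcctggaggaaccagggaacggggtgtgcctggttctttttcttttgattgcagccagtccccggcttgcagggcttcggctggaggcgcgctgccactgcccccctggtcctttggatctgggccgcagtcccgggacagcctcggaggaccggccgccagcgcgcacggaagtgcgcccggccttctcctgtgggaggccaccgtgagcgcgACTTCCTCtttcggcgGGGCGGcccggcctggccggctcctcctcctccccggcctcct
Itga2b: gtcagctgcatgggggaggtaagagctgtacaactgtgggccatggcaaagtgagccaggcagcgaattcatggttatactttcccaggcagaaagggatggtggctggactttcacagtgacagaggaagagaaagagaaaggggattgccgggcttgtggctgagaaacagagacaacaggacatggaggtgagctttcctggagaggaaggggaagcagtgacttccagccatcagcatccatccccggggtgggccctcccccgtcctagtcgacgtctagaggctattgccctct
Itgb5: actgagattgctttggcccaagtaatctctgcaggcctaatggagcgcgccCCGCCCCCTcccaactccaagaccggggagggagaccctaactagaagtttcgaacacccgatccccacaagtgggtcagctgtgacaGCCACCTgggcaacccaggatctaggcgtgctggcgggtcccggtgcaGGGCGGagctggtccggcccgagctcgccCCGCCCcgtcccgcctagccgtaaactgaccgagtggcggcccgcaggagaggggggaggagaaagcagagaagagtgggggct
The windows lie at chr2:79255176-79255475 (plus strand), chr2:83724147-83724446 (plus), chr11:102469834-102470133 (minus) and chr16:33829415-33829714 (plus). The RUNX letters TGTGGT were found in the Itga4 window, on the opposite strand at 60 bases before the start, and in 16.8% of all 32851 tabled promoters. The Itgav window held GAGGAAGT, found in 3.20% of promoters. The Itgb5 window held GGGCGG 3 times, found in 35.7% of promoters, with AGGGGGC (10.6%) and AGGTGGC (6.15%). The Itga2b window held none of the searched letters. Such matches describe the sequence and are not binding sites.

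The start of Itga4, the alpha chain that binds VCAM1 and fibronectin, was the most significant of the tabled starts in both lists. Its peak at chromosome 2, 79255110 to 79256173, had an authors' fold over background of 5.09 and a -log10 q of 28.1 in Smc3 het, with a summit pileup of 78 fragments. In Smc3 wt the peak ran from 79255360 to 79255899, with a fold of 5.18, a -log10 q of 21.7 and a pileup of 60. It covered 300 bases of the window shown above in Smc3 het and 116 in Smc3 wt. The start of Itgav, which encodes the alpha v chain of vitronectin receptors, had folds of 5.50 and 5.49 in Smc3 het and Smc3 wt, with summits 34 and 33 bases before the start. Folds are relative to each list's own background and are given side by side, not compared. A further Itgav peak, inside the gene (-log10 q 4.99), had no Smc3 wt counterpart.

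Itga4 (79255426 to 79333114) had 4 more peaks, all in the Smc3 het list alone. Of these, 3 lay outside the gene at 61426, 82235 and 123079 bp from it, with -log10 q of 2.04, 5.96 and 3.21. The fourth lay 14990 bp inside, at 7.51. With peaks taken from the span and 5 kb around it, or given to the nearest of all genes in the table, Itga4 had 2 Smc3 het peaks. Itga9 (chromosome 9, 118606709 to 118901003), whose chain binds tenascin-C and osteopontin with the Itgb1 chain, had 7 peaks in Smc3 het against 1 in Smc3 wt. The shared peak lay at the lower-numbered end of its span and was weak in both lists, with -log10 q of 2.80 and 1.76. Another Itga9 peak, at 118614980 to 118615464 inside the gene, had the highest -log10 q of all integrin peaks of the Smc3 het list alone (21.7, fold 5.08, pileup 60). Its nearest Smc3 wt peak was 8229 bp away.

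Among the beta chains, Itgb1 (chromosome 8, 128685654 to 128733579), the partner of most alpha chains, had 5 Smc3 het and 2 Smc3 wt peaks. Its start peak had a -log10 q of 18.5 and a pileup of 57 in Smc3 het, against 13.9 and 44 in Smc3 wt. A second site shared by both lists lay 30815 bp before the start, with -log10 q of 17.7 and 6.89. The 3 others were far from the gene, at 22298 to 78803 bp, and had -log10 q of at most 4.07. Of all these sites the start peak alone stayed with Itgb1 when peaks were taken from its span and 5 kb around it, or given to the nearest of all genes in the table, non-coding ones included. Under both rules Itgb1 had 1 peak in each list.

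Itgb2 (chromosome 10, 77530329 to 77565708), the common beta chain of leukocyte integrins, had 9 Smc3 het peaks, the most of any integrin gene, and 3 Smc3 wt peaks. Inside its span it held 19.8 Smc3 het peaks per 100 kb, and Itgb7 held 23.0, the highest values among the integrin genes. The value pooled over all genes of 16.6 to 319 kb was 2.71. It is not a like measure, since Itgb2 spans 35.4 kb and Itgb7 17.4 kb, and a few peaks in a short span give a high value. The 3 shared sites lay 1598, 6485 and 20798 bp from the lower-numbered end of the gene. Their folds were 3.74, 4.06 and 4.16 in Smc3 het and 3.25, 2.70 and 4.11 in Smc3 wt. Within 1 kb of that end were 2 peaks of the Smc3 het list alone, at 77530201 to 77530390 (-log10 q 4.07) and 77531085 to 77531461 (14.8). The second of these was 349 bp from a Smc3 wt peak. The local background at the Smc3 het peaks of Itgb2 was 10.7 to 14.8 fragments. Of the markers of monocytes and macrophages, which carry Itgb2 chains, 8 of 10 had a peak at a gene end for Smc3 het and 1 of 10 for Smc3 wt, and of neutrophil markers 2 of 10 and 1 of 10. Their part in the Itgb2 result was not tested.

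Itgb3 (chromosome 11, 104608000 to 104670476), the beta chain of the platelet fibrinogen receptor, had 8 peaks, all inside the gene and all in the Smc3 het list alone. Their -log10 q ran from 4.99 to 10.1, their folds from 2.59 to 3.58 and their pileups from 32 to 49, so none reached the 11.8 that marks the 14830 most significant Smc3 het peaks. The first lay at 104608112 to 104608776, and 4 of the 8 lay within 6352 bp of the lower-numbered end of the gene. Over all genes, 100 had at least 8 Smc3 het peaks and 0 Smc3 wt peaks, of 1086 with at least 8 Smc3 het peaks.

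Itga2b (chromosome 11, 102453297 to 102469883), whose alpha IIb chain pairs with the Itgb3 chain, differed from Itgb3 in that both of its Smc3 het peaks were shared. The start peak, whose window is shown above, had its summit 302 bases before the start in Smc3 het, against 391 in Smc3 wt, with -log10 q of 20.6 and 6.53. The second site lay 2566 bases inside the gene, with 18.7 and 8.55. The local background there was 16.6 to 17.5 fragments in Smc3 het, above the genome-wide 10.6. Of 9 megakaryocyte markers, 5 had a peak at a gene end for Smc3 het and 2 for Smc3 wt. Their part in these results was not tested.

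**Figure D4:**
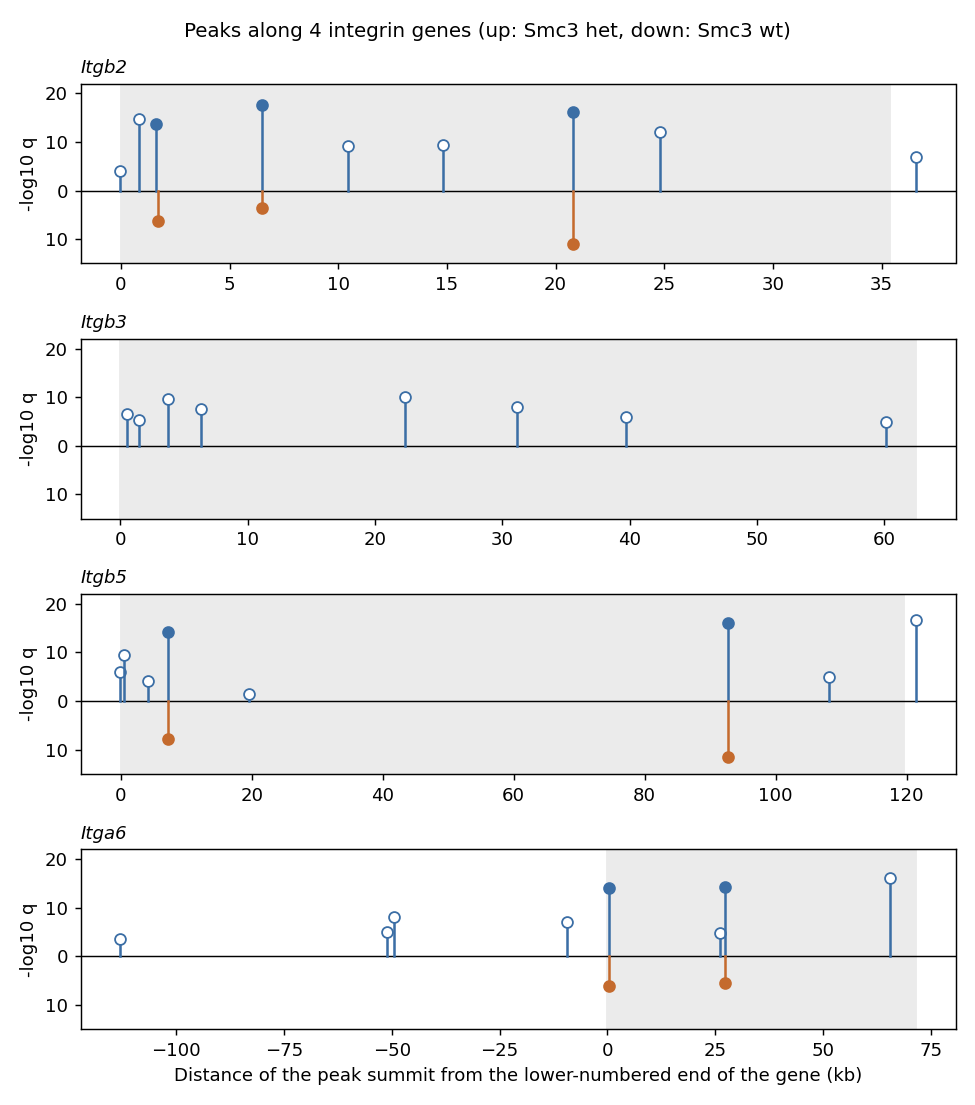
Peaks along Itgb2, Itgb3, Itgb5 and Itga6: distance of the summit from the lower-numbered gene end in kb (horizontal) and the authors' -log10 q (vertical, Smc3 het upward in blue, Smc3 wt downward in orange). Filled points overlap the other list, open points do not, grey marks the gene; Itgb3 has 8 open points and no Smc3 wt peak.

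Itgb5 (chromosome 16, 33829665 to 33949338), a partner of the alpha v chain, had 8 Smc3 het and 2 Smc3 wt peaks. At its start the Smc3 het list held 2 peaks, at 33829529 to 33829685 and 33829942 to 33830521, with -log10 q of 5.96 and 9.58, and the Smc3 wt list held none. The first covered 157 bases of the window shown above. The shared sites lay 7157 and 92737 bp inside the gene, with folds of 4.11 and 4.32 in Smc3 het and 3.63 and 4.25 in Smc3 wt. A peak 1729 bp beyond the far end of the gene (33950982 to 33951220) was in the Smc3 het list alone with a -log10 q of 16.7.

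Itgb7 (chromosome 15, 102215994 to 102233405), whose chain pairs with the alpha 4 and alpha E chains of lymphocytes, had 4 Smc3 het peaks, 2 of them shared. One shared site had its summit 792 bases inside the gene from the tabled start for Smc3 het and 835 for Smc3 wt, and the other lay 6612 bases inside, with -log10 q of 18.4 and 9.99. Itgb4, which pairs with the alpha 6 chain in hemidesmosomes, had 3 Smc3 het peaks, of which the most significant (20.8) was shared and lay 3230 bp from the upper end of the gene. Its peak at the lower-numbered end was in the Smc3 het list alone (3.26). Itgb6, an epithelial partner of alpha v, had 1 site, shared and inside the gene, at 60631520 to 60632547 in Smc3 het. The Smc3 het fold was 6.71 and the Smc3 wt fold 4.66, although neither list had a peak at either end of the gene.

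The leukocyte alpha chain genes had 1 to 4 Smc3 het peaks each, against a median of 3 over the integrin genes, and their shared sites lay away from their ends. Itgad (chromosome 7, 128173933 to 128205504), which encodes a macrophage alpha chain, held the most significant integrin peak of both lists. The Smc3 het peak ran from 128186704 to 128188461, with a fold of 10.2, a -log10 q of 121 and a pileup of 193, and ranked 294 in its list. Smc3 wt had 2 peaks across the same stretch, 128186777 to 128187164 (fold 3.31) and 128187431 to 128188450 (fold 8.80, -log10 q 61.0, rank 360). Itgam, the alpha chain of Mac-1 on myeloid cells, had no peak inside its span or at its tabled start in either list. A site 11734 bp before that start was shared, with folds of 6.44 and 4.56 and summits 2 bp apart. Its other peak, 22071 bp outside, was weak (1.69) and in the Smc3 het list alone. Both Itgam sites and the Itgal peak rest on the assignment rule, since each gene had 0 peaks in both lists with either of the other rules given for Itgb1. Itgal, the alpha chain of LFA-1, had 1 Smc3 het peak (5.96), 8006 bp outside its span, and no Smc3 wt peak.

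Itgae, whose alpha E chain binds E-cadherin, had 4 Smc3 het and 2 Smc3 wt peaks, all inside the gene. Its shared site (73137633 to 73138531) lay within 1 kb of an end of Haspin, a histone H3 kinase gene, and 9106 bp from the nearest end of Itgae. Itgae also had the only integrin peak of the Smc3 wt list alone, at 73108941 to 73109238 with a fold of 2.73 and a -log10 q of 3.29. It lay 182 bp from a Smc3 het peak (73108438 to 73108759, -log10 q 3.22).

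Among the collagen-binding alpha chains, Itga1 and Itga2, which neighbour each other on chromosome 13, each had a shared start peak and 5 Smc3 het peaks. The start peak of Itga1 had a -log10 q of 8.06 in Smc3 het and 3.96 in Smc3 wt. That of Itga2 had 5.96 and 6.58, with pileups of 34 and 32. The most significant Itga1 site (26.4 in Smc3 het and 12.1 in Smc3 wt) lay within 1 kb of an end of Pelo, a ribosome rescue factor gene inside the Itga1 span. The other 4 Itga2 peaks, 3 inside the gene and 1 located 1657 bp before the start, were in the Smc3 het list alone with -log10 q of 3.21 to 10.3. Itga10 had 1 peak (10.2), 18202 bases beyond its start near the far end of the gene, and Itga11 had 2 weak ones (2.80 and 2.04).

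Of the laminin-binding alpha chains, Itga6 (chromosome 2, 71786886 to 71858427), a surface marker of stem cells, had 8 Smc3 het and 2 Smc3 wt peaks. The shared sites lay 316 and 27304 bp from the lower-numbered end, with folds of 4.21 and 4.08 in Smc3 het and 3.31 and 3.21 in Smc3 wt. A peak 65543 bp from that end, in the Smc3 het list alone, had a -log10 q of 16.1, higher than either shared site. A further 4 peaks lay outside the gene on that side, 9250 to 112947 bp away, and with the other assignment rules Itga6 had 4 or 5 Smc3 het peaks. Itga3 had 2 peaks (pileups of 44 and 24) and Itga7 had 1 (pileup of 32), all in the Smc3 het list alone.

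The fibronectin receptor chain gene Itga5 (chromosome 15, 103344286 to 103366791) had 5 peaks, all in the Smc3 het list alone. Its start peak, with a summit 218 bases inside the gene, had a fold of 2.49, a -log10 q of 4.23 and a pileup of 36. The other 4 had -log10 q of 2.82 to 8.92. The local background at these peaks was 12.3 to 15.5 fragments. Itga8, a nephronectin receptor chain gene, had a shared start peak with -log10 q of 6.47 and 5.49 and a peak 37574 bases inside the gene in the Smc3 het list alone with 16.7. Itgbl1, a secreted beta-like protein gene with the longest span, had 7 Smc3 het peaks along its length and 1 in Smc3 wt. The shared one had 16.7 and 2.59.

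Since the lists differ in length, the longer was also cut down to its 14830 most significant peaks. It then held 27 integrin peaks, against 28 in Smc3 wt. Of the 27, 21 (77.8%, 57.7 to 91.4) overlapped a Smc3 wt peak, against 76.1% of all peaks so limited. The 6 without a counterpart were at Itga9 (21.7), Itga8 (16.7), Itgb5 (16.7), Itga6 (16.1) and Itgb2 (14.8 and 12.1). The Smc3 wt list had 6 without a counterpart in the limited list, 1 each at Itga1, Itga2, Itga8, Itga9, Itgae and Itgb7. Of these, all but the Itgae peak overlapped a Smc3 het peak below the limit. No Smc3 het peak at Itgb3 or Itga5 was left.

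Over the 25 sites where 1 peak of each list overlapped, the summits lay a median of 43 bp apart, and at most 434 bp. The Smc3 het peak was the wider in 22 of the 25, with a median width of 577 bp against 335 bp. Over all peaks with a gene, the median width was 640 bp for shared Smc3 het peaks and 418 bp for Smc3 wt peaks. Of the 76 Smc3 het peaks without overlap, 4 lay within 500 bp of a Smc3 wt peak and 66 lay over 5 kb from any. Of all 46907 Smc3 het peaks with a gene, 14131 overlapped a Smc3 wt peak and 14950 overlapped or lay within 500 bp of one. The share over 5 kb away was not taken over all peaks, so the 66 cannot be called particular to integrin genes.

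Genes that act with integrins were counted in the same way. Among 30 genes of ligands and counter-receptors, 20 (66.7%) had a peak in the Smc3 het list alone, with a median of 2 per gene. The share was 56.4% of all genes and 70.2% of those in the integrin span range. The 30 genes had a median span of 27.8 kb, against 17.2 kb over all genes. They had 84 Smc3 het and 14 Smc3 wt peaks, a ratio of 6 against 3.18 over the whole lists. The laminin chain gene Lama5 had 8 of 8 in the Smc3 het list alone, and Nid1, Thbs1 and Vwf had 7 each, of 9, 8 and 9. Vcam1, the marrow ligand of the alpha 4 chain, had none in either list, and Icam1, a ligand of the beta 2 chains, had 2 shared ones. A gene-end peak in Smc3 het and not in Smc3 wt was found at 10 of the 30, against 14.2% of all genes. Of 7 stromal and endothelial markers, cells that make many of these ligands, 3 had a peak at a gene end for Smc3 het and 0 for Smc3 wt. Col1a1 is in both the ligand and the marker list and had such a peak in Smc3 het only, so the counts overlap. The part of these cells in the ligand count was not tested.

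Of 24 genes listed as activators and inhibitors of integrins, 18 (75.0%) had a peak in the Smc3 het list alone, with a median of 2. The share was 56.4% of all genes and 70.2% of those in the integrin span range. The 24 include Mdfi (2 such peaks), whose name stands for MyoD family inhibitor and not for an integrin inhibitor. The 80 Smc3 het and 21 Smc3 wt peaks of the 24 genes gave a ratio of 3.81. The adaptor gene Fyb had 9 of 12, the GTPase gene Rap1a 6 of 7 and the Rap effector gene Rassf5 6 of 9, and 1 Smc3 wt peak of Fyb had no counterpart. The talin gene Tln1 and the blood kindlin gene Fermt3 each had 3 peaks in Smc3 het against 1 in Smc3 wt. Of 29 adaptors and kinases, 25 (86.2%) had such a peak, with a median of 3, and their 142 Smc3 het and 45 Smc3 wt peaks gave a ratio of 3.16, near that of the whole lists. The kinase genes Ptk2b and Syk had 8 of 14 and 8 of 10, and the paxillin gene Pxn had 7 of 10. At Pxn, 1 Smc3 wt peak had no counterpart. At Ptk2, which encodes focal adhesion kinase, Vcl and Zyx all Smc3 het peaks (3, 2 and 3) were shared. Over all genes the median was 1 peak in the Smc3 het list alone.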

How the data were processed

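ATAC-seq peaks were analysed for 3 Smc3 het and 3 Smc3 wt libraries, grouped by sample titles. Bowtie2, MACS2 and the mm10 build are named in the submitters' processing notes. Their versions and settings, a Tn5 shift and pooling of libraries were not stated. The authors deposited 1 headerless 10-column list per genotype. Peak names tied each list to its genotype. A peak has a deposited integer score (not used), a deposited fold (the ratio of summit to background), the deposited -log10 p-value and -log10 q-value, and the summit offset. They describe a peak within its list.

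Positions are 1-based. The whole-number pileup was recovered from the deposited fold and -log10 p by a Poisson upper tail, which matched within 0.01 for 99.8% of Smc3 het and 99.7% of Smc3 wt peaks checked (1 in 10) and for all 130 integrin peaks. Overlap, assignment and pileup functions were tested on simulated data. Gene spans came from a RefSeq table of GRCm38.p6 without exons, so exons, introns and UTRs were not told apart. A summit inside several spans counted for each gene. Gene ends are within 1 kb of either end. Python 3.11.15, numpy 2.4.6, pandas 2.3.3 and scipy 1.17.1 were used.

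The members, lists and motifs were chosen with earlier results of these data known. All members are named, with values for their gene-end peaks, their most significant peak and any peak of the Smc3 wt list alone. From each pathway list up to 3 genes are named by their number of Smc3 het peaks without overlap, with ties, and 1 by its number of such Smc3 wt peaks. A gene that this rule names is not reported here. Tln1, Fermt3, Vcam1, Icam1, Ptk2, Vcl and Zyx were added after their values were seen. Alternatives were a stricter threshold, equal list lengths, other overlap rules, other gene assignments, other gene-end windows and fewer members. Tests over replicates need values per library, which the files analysed here do not hold.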

Additional observations from a re-analysis of the deposited data

How the results depend on the processing

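At equal list lengths, with peaks ranked by -log10 q, the 102 Smc3 het peaks became 27, the share of them overlapping Smc3 wt rose from 25.5% to 77.8%, the genes with a peak in the Smc3 het list alone went from 23 to 5, and the genes with a Smc3 het gene-end peak from 14 to 5. Ranked by fold, these were 28, 75.0%, 7 and 5. Smc3 wt kept 28 peaks and 8 gene-end genes there. Equal lengths bring the peak numbers of the lists together by construction, so they say nothing of the direction of the integrin counts. With a -log10 q of at least 5 in both lists, 63 Smc3 het and 23 Smc3 wt peaks were left. Over all genes 28366 Smc3 het peaks passed this cut, more than the whole Smc3 wt list of 14830. The direction is thus that of the lists as a whole and not particular to integrin genes. Of the 63, 34.9% overlapped a Smc3 wt peak, against 38.4% of all Smc3 het peaks so limited. With gene ends taken as within 250 bp, 9 genes had a Smc3 het gene-end peak and 6 a Smc3 wt one. Of the other values, 44 stayed within 1.5 times the reported count or within the interval of the share. Several of these could not have moved, so their number is no measure of stability. Overlap rules cannot change peak numbers or gene-end counts, and cutting the Smc3 het list cannot change Smc3 wt counts. Gene-end counts are taken over all peaks, so gene assignment cannot change them either. No paired analysis was possible because the files hold 1 list per genotype and no value per library, and libraries could not be left out for the same reason. Without read counts, peaks near the threshold of a list cannot be weighed against their absence from the other.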

Other observations

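The GAGGAAGT letters bound by ETS factors such as PU.1, the Spi1 product, were found in 5 of the 21 RefSeq start windows of integrin genes (23.8%), against 3.20% of all 32851 windows. Among all strings searched, this one stood furthest above its share over all windows, and the difference was not tested. The other ETS letters searched, CCGGAA, were in 2 of 21 (9.52%), against 14.9%. The GAGGAAGT windows were those of Itgav, Itga11, Itgb2l and Itgb6, with the first base 9, 40, 57 and 35 before the start, and of Itgb7, where it was the start base itself. A peak covered the window at Itgav, in both lists, and at none of the other 4. The GATA letters AGATAA were in none of the 21 windows, against 11.2% of all windows, and GGGCGG was in 10 of 21 (47.6%, against 35.7%). Genes with several starts give several windows, and these counts describe the sequences alone.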
